A study of Mus musculus with 12 samples.

Results

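The 10 genes described here are the Notch receptors Notch1, Notch2 and Notch3, the ligands Jag1, Jag2 and Dll4, the transcriptional targets Hes1, Hey1 and Hey2, and Neurl1b, a ubiquitin ligase that acts on the ligands. They were chosen by symbol, 10 of the 24421 genes counted in each library, and all 10 passed the filter on low counts that left 12252 genes for testing. The RNA-seq data were 12 libraries of cardiomyocytes sorted from hearts of CD1 mice at postnatal day 1. Cells were gated on YFP, which marks cells of the αMHC-Cre lineage, and on Mitotracker, a dye for mitochondrial content. Mitotracker-high cells are called Tnnt2low and Mitotracker-low cells Tnnt2high, a pairing that the study made by flow cytometry for the troponin Tnnt2. Glut1 transgenic (Glut1 tg) mice carried aMHC-hGLUT1tg, the human glucose transporter GLUT1 under the αMHC promoter, with aMHC-Cre tg and the R26+/YFP reporter. Wild type (WT) mice carried no GLUT1 transgene and, by the study's methods, the same Cre and reporter. The αMHC promoter is active in cardiomyocytes, so the transgene and the reporter share the cell type in which they are switched on. There were 4 Glut1 tg Tnnt2low, 4 Glut1 tg Tnnt2high, 2 WT Tnnt2low and 2 WT Tnnt2high libraries. Each Glut1 tg replicate number stands for 1 heart that gave both populations. Both WT replicates carry heart number 9, so they may come from a single heart, and the spread between them may then be technical.

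Notch signaling passes between neighbouring cells. A Jagged or Delta ligand on one cell binds a Notch receptor on another, the receptor is cut by proteases, and its intracellular part enters the nucleus, joins Rbpj and Maml proteins and switches on genes of the Hes and Hey families. The ligand has to be ubiquitinated and pulled into the cell that carries it for the receptor to be cut, and Neurl1b and the Mib proteins are the ligases for this step. In the heart the pathway is known for its part in valve and trabecular development, Dll4 and Notch1 are prominent in endothelium and endocardium, Notch3 in pericytes and vascular smooth muscle, and Hey2 in ventricular muscle.

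Rbpj binds DNA through a core motif, GTGGGAA, and Hey proteins bind E-boxes such as CACGTG, so the bases before the start sites of the genes were searched for both on either strand. RefSeq start-site windows on GRCm38.p6 were found for 8 of the 10 genes, and Hes1 and Hey1 had none. The windows ran from 250 bases before to 50 bases after the start, and in every window only the 250 bases before it were searched. GTGGGAA or its reverse complement TTCCCAC lay in 1 of the 8 windows (12.5%), that of Hey2, against 5.42% of 32851 windows of all genes. CACGTG lay in 0 of the 8, against 6.02% of all windows. The 250 bases before the start are printed for Hey2, the window with the match, and for Neurl1b, the gene with the largest difference upward between populations. Capitals mark the match, which runs from -207 to -201 counted from the start site. Letters that match are a description and not a bound site.
Hey2, chr10:30842784-30843033, minus strand: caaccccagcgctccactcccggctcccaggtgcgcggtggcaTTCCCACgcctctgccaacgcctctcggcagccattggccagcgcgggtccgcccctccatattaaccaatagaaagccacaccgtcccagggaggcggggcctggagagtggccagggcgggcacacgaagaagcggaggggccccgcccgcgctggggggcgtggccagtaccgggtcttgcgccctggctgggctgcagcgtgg
Neurl1b, chr17:26414609-26414858, plus strand: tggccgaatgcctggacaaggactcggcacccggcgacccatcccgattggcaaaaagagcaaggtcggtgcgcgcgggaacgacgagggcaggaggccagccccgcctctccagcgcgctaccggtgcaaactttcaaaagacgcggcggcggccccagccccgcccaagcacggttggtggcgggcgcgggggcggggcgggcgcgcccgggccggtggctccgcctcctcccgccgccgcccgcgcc

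Reads in genes numbered 4065306 to 9815069 per library, and levels are given as CPM, counts scaled to the size of the library, with TMM factors. Reads outside exons came to 0.886 to 1.07 per read in genes in Glut1 tg Tnnt2low libraries and to 2.26 to 2.63 in Glut1 tg Tnnt2high libraries. The former held 7301762 to 9815069 reads in genes and the latter 4065306 to 5241475. Mouse Slc2a1, to which reads of the human transgene may align in part, was at 44.9 to 92.3 CPM in Glut1 tg Tnnt2low and 15.9 to 27.7 CPM in WT Tnnt2low libraries, and at 33.5 to 92.5 against 13.3 to 28.9 CPM in Tnnt2high libraries. Tnnt2 itself was lower in Tnnt2low cells of Glut1 tg hearts (log2 fold change -0.42, SE 0.09, adjusted p = 0.00723, edgeR quasi-likelihood test), while in WT the value was -0.04 (SE 0.13, adjusted p = 1). The 7 cardiomyocyte markers together held 103000 to 127900 CPM in every library. WT Tnnt2high replicate 2 lay close to libraries of both populations. Of all 12 libraries the one most like it was WT Tnnt2low replicate 2, and its 1.51 reads outside exons per read in genes lay below the 1.83 of WT Tnnt2high replicate 1. It was in turn the library most like Glut1 tg Tnnt2high replicate 1. Its mean correlation of log2 CPM was 0.955 with Glut1 tg Tnnt2low and 0.932 with Glut1 tg Tnnt2high libraries. For WT Tnnt2high replicate 1 these values were 0.911 and 0.925. The WT population differences of the 10 genes are given with and without WT Tnnt2high replicate 2. Reads of the Y-linked gene Ddx3y were at 56.4 CPM or more in Glut1 tg replicates 2 and 4 and at most at 0.508 CPM in the other libraries, so sex differed within the Glut1 tg group and, in part, between genotypes, and its part in the genotype comparisons was not tested.

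Hey2, Hes1 and Neurl1b were the most abundant of the 10 genes per length, and Hey1 and Jag1 the least. Averaged over the 12 libraries, Hey2 stood at 13.7, Hes1 at 10.4 and Neurl1b at 9.96 CPM per kb of exon. Notch2 followed at 3.67 CPM per kb, the highest of the receptors, then Jag2 at 1.07 and Dll4 at 0.851. Notch1 and Notch3 were close together at 0.736 and 0.728, and Jag1 and Hey1 stood at 0.483 and 0.412. The order changed between populations of Glut1 tg hearts. In Tnnt2low libraries Neurl1b stood at 15.6 ± 8.68 and Hey2 at 15.2 ± 5.30 CPM per kb (SD, n = 4), a gap smaller than either spread. In Tnnt2high libraries Hey2 stood at 13.3 ± 4.01, Hes1 at 12.7 ± 3.02 and Neurl1b at 4.12 ± 0.911 CPM per kb (SD, n = 4), so Hey2 and Hes1 were within their spread of each other and Neurl1b was below both.

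**Figure D1:**
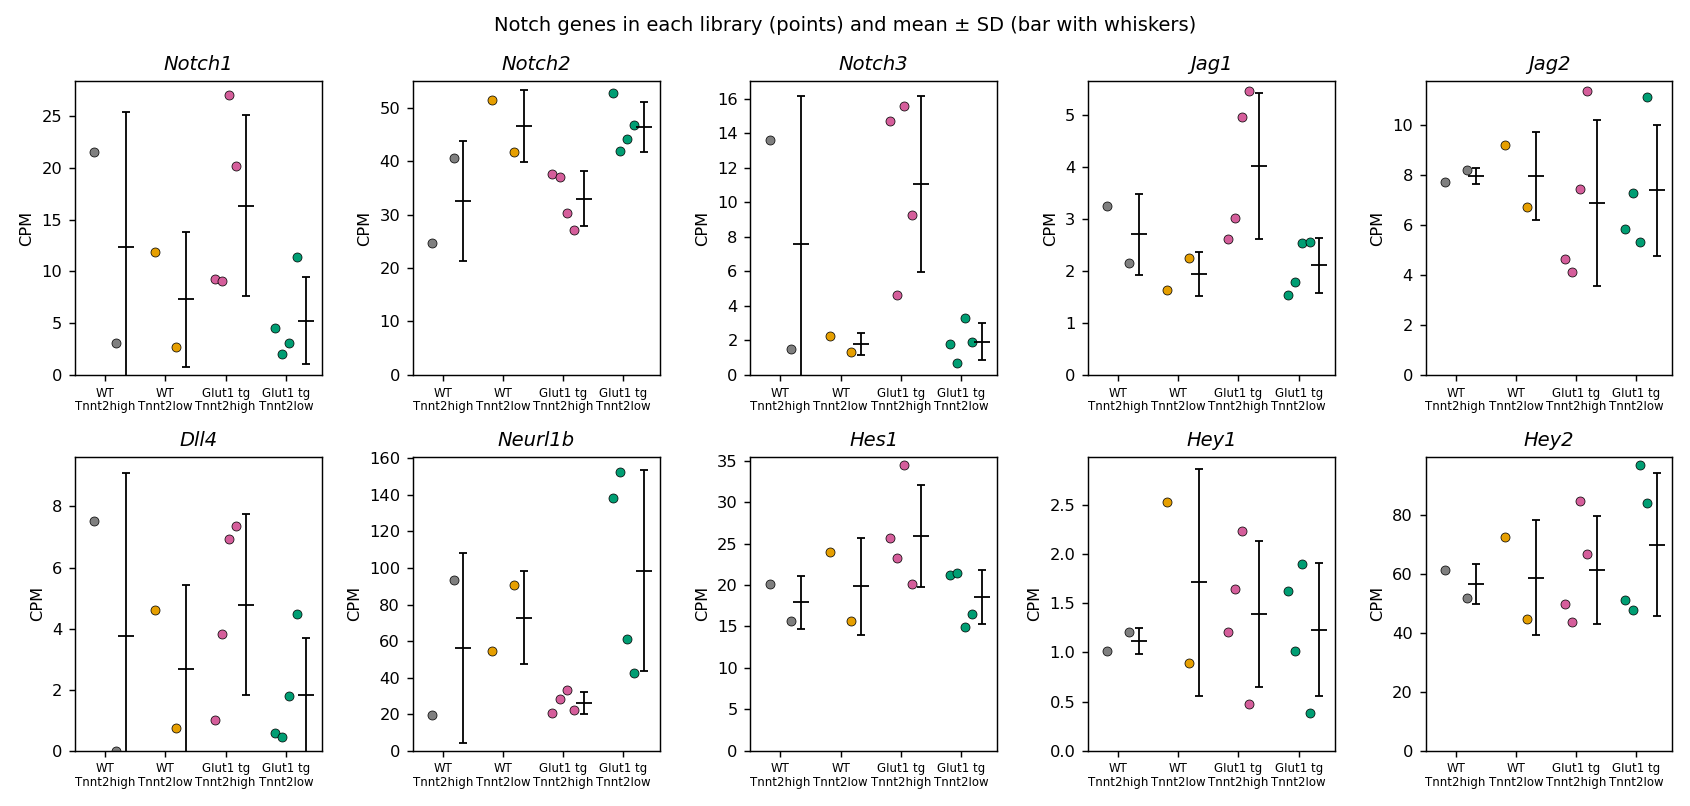
Level of each of the 10 genes in CPM (y axes, linear from 0) in the 4 groups (x axes), with 1 point per library and the mean ± SD beside the points (whiskers stop at 0). Neurl1b lies between 42.3 and 152.3 CPM in the 4 Glut1 tg Tnnt2low libraries and between 20.8 and 33.2 CPM in the 4 Glut1 tg Tnnt2high libraries, and the WT Tnnt2high libraries are split at 19.6 and 93.2 CPM.

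Neurl1b, the ligase (chr17:26414829-26446349, plus strand, mm10), had the widest range of the 10 genes in absolute CPM. In Glut1 tg Tnnt2low libraries it stood at 138.5, 152.3, 61.0 and 42.3 CPM for replicates 1 to 4, and in Glut1 tg Tnnt2high libraries at 20.8, 28.2, 33.2 and 22.1 CPM. The lowest Tnnt2low library was thus above the highest Tnnt2high library, and Tnnt2low was higher in 4 of 4 hearts, with replicates 1 and 2 far above 3 and 4. The difference was 3.79-fold (log2 1.92, SE 0.45, 95% interval 0.96 to 2.88). Neurl1b was put on the list for its rise in this contrast, so the fold change is a description and carries no test here. With heart as a block it was 1.75 (SE 0.33), and with an offset for transcript length and GC 1.49 (SE 0.44).

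In WT hearts Neurl1b stood at 54.6 and 90.8 CPM in Tnnt2low and at 19.6 and 93.2 CPM in Tnnt2high libraries of replicates 1 and 2. Replicate 1 resembled the Glut1 tg hearts and replicate 2 had nearly equal levels in both populations. The log2 fold change was 0.36 (SE 0.61, 95% interval -0.93 to 1.65, edgeR adjusted p = 1). Without WT Tnnt2high replicate 2 it was 1.90 (SE 0.66, edgeR adjusted p = 0.39), with the remaining library assumed to vary like the other groups. This library also set the genotype comparison in Tnnt2high cells, where the log2 fold change of Glut1 tg over WT was -1.13 (SE 0.52, edgeR adjusted p = 0.899) with it and 0.42 (SE 0.59, edgeR adjusted p = 0.989) without it. In Tnnt2low cells Glut1 tg exceeded WT by 0.44 on the log2 scale (SE 0.53, edgeR adjusted p = 1), well inside the spread of the libraries, and leaving out replicate 1 or 2 of WT Tnnt2low gave 0.12 or 0.86. The population difference was 1.57 larger in Glut1 tg than in WT (SE 0.75, 95% interval -0.04 to 3.17), and 0.02 larger without that library. Without WT Tnnt2high replicate 1 instead, it was 2.29 larger. The WT population difference was then -0.36 and the Tnnt2high genotype difference -1.85. These comparisons share libraries with one another.

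Mitosis genes moved with Neurl1b across the libraries. The summed level of 8 of them (Mki67, Top2a, Cenpf, Ccnb1, Ccna2, Kif11, Aspm and Foxm1) was 1511, 1782, 844.2 and 577.7 CPM in Glut1 tg Tnnt2low replicates 1 to 4 and 326.9 to 469.4 CPM in Glut1 tg Tnnt2high libraries. In WT it was 707.9 and 1145 CPM in Tnnt2low and 441.6 and 1102 CPM in Tnnt2high libraries, with the highest Tnnt2high value in WT Tnnt2high replicate 2. In Glut1 tg hearts 7 of the 8, all but Ccnb1, were higher in Tnnt2low cells at an edgeR adjusted p below 0.05. The share over all genes was 8.42%. Nothing is read from this count, since the list was chosen with this contrast known. The 5 genes most like Neurl1b by Pearson correlation of log2 CPM over the 12 libraries, among 7960 genes at a mean of 10 CPM or more, were Cenpf (r = 0.98), Kif14 (0.98), Arhgap11a (0.97), Ncoa2 (0.97) and Ckap2l (0.97). Cenpf, Kif14 and Ckap2l encode proteins of the mitotic spindle and chromosomes, and Ncoa2 a nuclear receptor coactivator. Mki67, the gene of the proliferation antigen Ki-67, ranked sixth by the same measure. The points share libraries, groups and depth, so these coefficients describe the 12 libraries only. Among the other Notch genes above the same level, r with Neurl1b was 0.70 for Notch2, -0.24 for Hey2, -0.36 for Hes1 and -0.82 for Notch1.

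**Figure D2:**
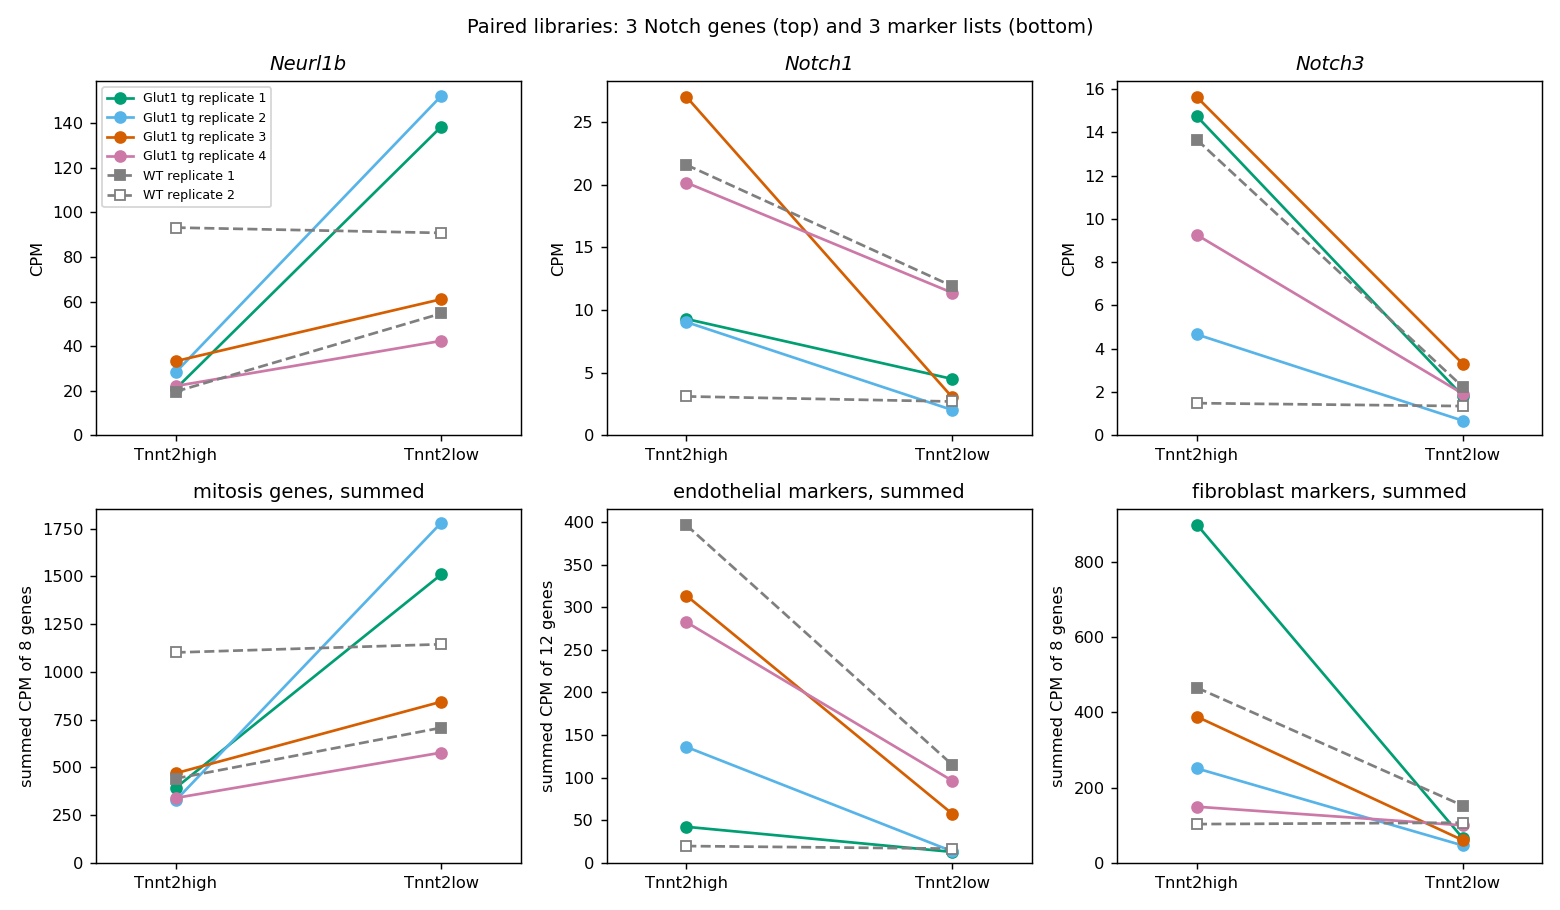
Levels of Neurl1b, Notch1 and Notch3 (top, CPM) and summed levels of mitosis genes, endothelial markers and fibroblast markers (bottom, summed CPM), with a line joining the Tnnt2high and Tnnt2low libraries of each replicate number. WT replicate 2 (open squares) is nearly flat in all 6 panels, with Neurl1b at 93.2 and 90.8 CPM, while WT replicate 1 (filled squares) runs in the direction of the Glut1 tg replicates (circles).

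The receptors did not move together. Notch2 (chr3:98013527-98150361) was at 52.7, 41.9, 44.0 and 46.8 CPM in Glut1 tg Tnnt2low and at 37.5, 37.0, 30.2 and 27.0 CPM in Glut1 tg Tnnt2high libraries, and at 51.4 and 41.7 against 24.6 and 40.5 CPM in WT. Tnnt2low libraries lay above Tnnt2high libraries in both genotypes without overlap. The log2 difference was 0.49 (SE 0.18) in Glut1 tg and 0.51 (SE 0.25, edgeR adjusted p = 1) in WT. The WT value was 0.93 (SE 0.29) without WT Tnnt2high replicate 2 and 0.20 without WT Tnnt2high replicate 1. The Glut1 tg value did not outlast the offset for transcript length and GC, with which it was -0.11 (SE 0.17). Notch2 has a transcript of 10500 bases, and transcript length moved with the contrast, as given below for the whole pathway.

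Notch1 (chr2:26457903-26516663) and Notch3 (chr17:32120820-32166852) were lower in Tnnt2low cells. Notch1 stood at 4.49, 2.02, 3.05 and 11.4 CPM in Glut1 tg Tnnt2low and at 9.28, 9.04, 27.0 and 20.2 CPM in Glut1 tg Tnnt2high libraries. It was lower in Tnnt2low in 4 of 4 hearts, although replicate 4 of Tnnt2low lay above replicates 1 and 2 of Tnnt2high, and the difference was -1.65 on the log2 scale (SE 0.65). Notch3 stood at 1.82, 0.674, 3.30 and 1.92 CPM in Tnnt2low and at 14.7, 4.66, 15.6 and 9.25 CPM in Tnnt2high libraries of Glut1 tg hearts, with no overlap and a log2 difference of -2.52 (SE 0.64), or 5.75-fold lower. With heart as a block the difference was -1.74 (SE 0.39) for Notch1 and -2.55 (SE 0.46) for Notch3.

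In WT, Notch1 was at 11.9 and 2.69 CPM in Tnnt2low and at 21.6 and 3.10 CPM in Tnnt2high libraries. Notch3 was at 2.23 and 1.35 against 13.7 and 1.48 CPM. Both were lower in Tnnt2low in 2 of 2 replicates, by a wide margin in replicate 1 and hardly in replicate 2. The WT log2 differences were -0.73 (SE 0.91) and -2.04 (SE 0.91), each at an edgeR adjusted p of 1. Without WT Tnnt2high replicate 2 they were -1.55 (SE 0.91, edgeR adjusted p = 0.579) and -2.91 (SE 0.81, edgeR adjusted p = 0.371), and without WT Tnnt2high replicate 1 they turned to 1.23 and 0.27.

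Endothelial and fibroblast markers moved with these receptors. In Glut1 tg hearts the 3 endocardial markers summed to 10.1 to 23.5 CPM in Tnnt2low and 9.58 to 28.2 CPM in Tnnt2high libraries. Of their log2 differences 1 was positive and 2 were negative. The leukocyte markers summed to at most 8.07 CPM in any library. The 12 endothelial markers summed to 12.9 to 96.6 CPM in Glut1 tg Tnnt2low, 42.4 to 313.7 in Glut1 tg Tnnt2high, 115.4 and 16.8 in WT Tnnt2low and 396.4 and 19.8 CPM in WT Tnnt2high libraries, and only Emcn was at 0 in any library (Glut1 tg Tnnt2low replicate 1). In Glut1 tg hearts 0 of the 12 rose and 1 of the 12, Robo4, fell (edgeR, adjusted p below 0.05). Over all genes 8.42% rose and 8.33% fell. All 12 had negative log2 differences in both genotypes, with a median of -2.19 in Glut1 tg and -1.41 in WT. Of the 12252 genes, 6174 were negative in Glut1 tg and 6139 in WT. Notch1 and the endothelial sum were both highest in Tnnt2high replicates 3 and 4 of Glut1 tg and replicate 1 of WT. The 8 fibroblast markers summed to 46.4 to 99.8 CPM in Glut1 tg Tnnt2low, 149.2 to 897.8 in Glut1 tg Tnnt2high, 152.2 and 106.8 in WT Tnnt2low and 465.1 and 103.0 CPM in WT Tnnt2high libraries. Of these 8, 5 fell in Tnnt2low cells of Glut1 tg hearts and 0 rose, beside the same shares of all genes. Tcf21 was at 0 in 5 libraries and Pdgfra and Lum in 1. Of the 7 smooth muscle and pericyte markers 6 were tested, with 2 positive and 4 negative log2 differences in Glut1 tg hearts. Abcc9 and Cspg4, which made up most of the sum of 457.8 to 691.6 CPM, rose. Myh11, Cnn1, Rgs5 and Pdgfrb had negative values, and Pdgfrb fell by 2.47 on the log2 scale (SE 0.70, edgeR adjusted p = 0.0271). Pdgfrb was at 0.765 to 2.41 CPM in Glut1 tg Tnnt2low and at 4.98 to 12.7 CPM in Glut1 tg Tnnt2high libraries, and at 11.8 and 0.673 CPM in WT Tnnt2high replicates 1 and 2. The part of these cells in the values of Notch1 and Notch3 was not tested, and in sorted bulk samples fewer cells of a type and less RNA per cell cannot be told apart.

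The ligands were low, with Jag2 the highest at 11.4 CPM in 1 library. Jag1 (chr2:137081456-137116644), a Jagged ligand, was at 1.53, 1.80, 2.54 and 2.56 CPM in Glut1 tg Tnnt2low and at 2.62, 3.01, 4.96 and 5.46 CPM in Glut1 tg Tnnt2high libraries. The groups did not overlap, but the highest Tnnt2low library nearly met the lowest Tnnt2high library, and the log2 difference was -0.93 (SE 0.50). In WT it was at 1.64 and 2.24 against 3.26 and 2.15 CPM (log2 difference -0.47, SE 0.72, edgeR adjusted p = 1, and -0.73 without WT Tnnt2high replicate 2). Jag2 (chr12:112907819-112929776) was at 5.33 to 11.1 CPM in Glut1 tg Tnnt2low, 4.11 to 11.4 in Glut1 tg Tnnt2high, 6.73 and 9.23 in WT Tnnt2low and 7.74 and 8.21 CPM in WT Tnnt2high libraries. Its groups overlapped fully, and the 95% interval of the population difference ran from -0.70 to 0.89 on the log2 scale in Glut1 tg and from -1.10 to 1.10 in WT, where the difference was 0.05 (SE 0.67) without WT Tnnt2high replicate 2.

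Dll4 (chr2:119325784-119335962), the Delta ligand of endothelium, had few reads. It was at 0.574, 0.449, 1.78 and 4.48 CPM in Glut1 tg Tnnt2low and at 1.01, 3.83, 6.94 and 7.36 CPM in Glut1 tg Tnnt2high libraries, lower in Tnnt2low in 4 of 4 hearts with overlapping groups (log2 difference -1.40, SE 1.03). Without Glut1 tg Tnnt2low replicate 4 the difference was -2.35. In WT it was at 4.62 and 0.748 CPM in Tnnt2low and at 7.54 CPM and 0 in Tnnt2high libraries. The 0 reads in WT Tnnt2high replicate 2 allow a level of up to 0.404 CPM by counting error alone, taking 3 counts as the limit. The 3 libraries with the most Dll4 were the 3 with the highest endothelial sums, as for Notch1, and the part of endothelial cells in these values was not tested. The WT difference was -0.45 (SE 1.44, edgeR adjusted p = 1) and turned to 0.45 (SE 1.08, edgeR adjusted p = 0.978) with the replicate block. Without WT Tnnt2high replicate 2 it was -1.48.

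The log2 population differences of the targets in Glut1 tg hearts ran from -0.48 (Hes1) to 0.19 (Hey2). Hes1 (chr16:30064384-30067796), a repressor that is a common readout of Notch activity, was at 21.2, 21.4, 15.0 and 16.5 CPM in Glut1 tg Tnnt2low and at 25.6, 23.3, 34.5 and 20.2 CPM in Glut1 tg Tnnt2high libraries. It was lower in Tnnt2low in 4 of 4 hearts, by the most in replicate 3, with overlapping groups and a log2 difference of -0.48 (SE 0.23), or -0.31 without Tnnt2high replicate 3. With the offset for transcript length and GC this difference was -0.04 (SE 0.24). In WT it was at 24.0 and 15.7 against 20.2 and 15.6 CPM, higher in Tnnt2low in 2 of 2 replicates (log2 difference 0.15, SE 0.32, edgeR adjusted p = 1, and -0.01 without WT Tnnt2high replicate 2). The population difference of Glut1 tg less that of WT was -0.63 (SE 0.39, 95% interval -1.47 to 0.20), an interval that holds 0. Leaving out WT Tnnt2high replicate 2 gave -0.46, and leaving out replicate 1 or 2 of WT Tnnt2low gave -0.30 or -0.90.

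Hey2 (chr10:30832359-30842801), the Hey protein of ventricular muscle, was at 51.2, 47.8, 97.0 and 84.2 CPM in Glut1 tg Tnnt2low and at 49.8, 43.8, 84.8 and 66.7 CPM in Glut1 tg Tnnt2high libraries. Levels differed more between hearts than between populations, since replicates 3 and 4 were above replicates 1 and 2 in both. Tnnt2low was higher in 4 of 4 hearts by a log2 difference of 0.19 (SE 0.26). With heart as a block the difference was 0.17 (SE 0.14), and 0.36 (SE 0.13) with block and the offset for transcript length and GC. In WT Hey2 was at 72.7 and 44.9 against 61.5 and 51.7 CPM, higher in 1 of 2 replicates. The WT log2 difference was -0.06 (SE 0.45) without WT Tnnt2high replicate 2. Hey1 (chr3:8663359-8667256) was at 0.384 to 2.53 CPM in all 12 libraries, with a log2 difference of -0.16 (SE 0.75) in Glut1 tg and 0.61 (SE 1.05, edgeR adjusted p = 1) in WT, or 0.75 (SE 1.43) without WT Tnnt2high replicate 2. At this level its 95% interval in Glut1 tg, -1.76 to 1.44, did not exclude a doubling or a halving.

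**Figure D3:**
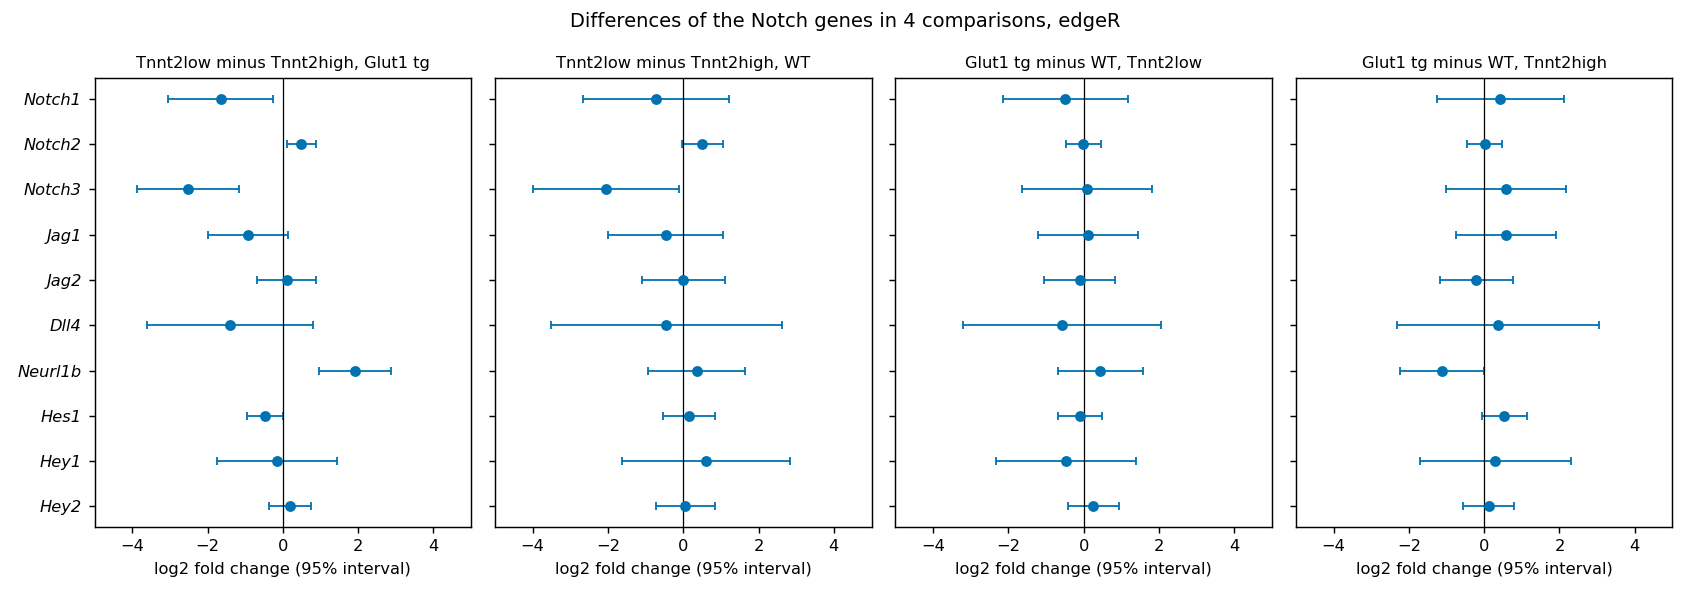
Log2 fold changes (points) and 95% intervals (bars) of the 10 genes from 1 edgeR fit of all 12 libraries in 4 comparisons, with 0 as the vertical line. In the Glut1 tg population comparison, shown as a description, Neurl1b lies at 1.92 and Notch3 at -2.52, and intervals are wider in the comparisons that use the 2 WT libraries of a population.

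Counts of calls are set here against those over all genes. In the Glut1 tg population comparison 2 of the 10 genes, Neurl1b and Notch3, had an edgeR adjusted p below 0.05, where 16.7% of the 12252 genes tested did. Nothing is read from this count, since the genes were chosen with this contrast known. In the WT population comparison 0 of 10 passed (0.0% of all genes), with 1 of 10 at an unadjusted p below 0.05 (Notch3) beside 3.11% of all genes, and DESeq2 called 0. Between genotypes 0 of 10 passed in Tnnt2low cells (0.00816% of all genes), with 0 at an unadjusted p below 0.05 (2.09% of all genes), and 0 of 10 in Tnnt2high cells (0.0%), with 1 at an unadjusted p below 0.05 (Neurl1b) beside 5.31% of all genes. DESeq2 called 0 of 10 in either. Groups did not overlap for 4 of the 10 in the Glut1 tg population comparison, 2 higher (Notch2 and Neurl1b, background 11.2%) and 2 lower (Notch3 and Jag1, background 10.9%). In WT 1 was higher, Notch2 (background 15.3%), and 0 lower (background 14.9%). Between genotypes 0 were higher and 0 lower in Tnnt2low cells (backgrounds 5.39% and 6.02%). In Tnnt2high cells 1 was higher (background 5.9%) and 0 lower (background 6.12%), and the 1 was Hes1, whose lowest Glut1 tg and highest WT libraries were both at 20.2 CPM. Without WT Tnnt2high replicate 2 the Tnnt2high genotype differences of the 10 ran from -0.65 (Dll4) to 0.44 (Hey1), and edgeR called 0 of 10 there and in the WT population comparison. The median log2 difference of the 10 was -0.32 in the Glut1 tg population comparison and 0.03 in WT, beside -0.01 and 0.00 over all genes.

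The other genes of the pathway numbered 53, of which 45 passed the filter. In the Glut1 tg population comparison 7 of the 45 rose in Tnnt2low cells and 1 fell (edgeR, adjusted p below 0.05), where 8.42% of all genes rose and 8.33% fell. Among the 9 proteases and their partners that cut the receptor, Furin, which processes the receptor precursor, rose by 0.37 on the log2 scale (SE 0.11, edgeR adjusted p = 0.0359), and Adam17, a sheddase, by 0.70 (SE 0.21, edgeR adjusted p = 0.0377). Both lost the call without Glut1 tg Tnnt2low replicate 1, 2 or 3 or Glut1 tg Tnnt2high replicate 1, and Furin also with the replicate block (edgeR adjusted p = 0.0606) and without the filter on low counts (edgeR adjusted p = 0.0688). Among 7 genes of the nuclear complex the acetyltransferases Crebbp and Ep300 both rose by 0.73 (SE 0.16 and 0.17). Rbpj, the DNA-binding factor, was at a log2 difference of 1.00 (SE 0.43, edgeR adjusted p = 0.125). Among 10 corepressors Spen rose by 1.06 (SE 0.22) and Ncor1 by 0.68 (SE 0.12). The 1 gene that fell, by 0.73 (SE 0.18, edgeR adjusted p = 0.0123), was Hes6, a Hes family gene known as an inhibitor of Hes1.

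Lists with no call are given by their most abundant genes. The ligases Mib1 and Mib2, which act on the ligands as Neurl1b does, had log2 differences of 0.60 (SE 0.21, edgeR adjusted p = 0.0638) and -0.19 (SE 0.24, edgeR adjusted p = 0.643). Mib1 was at 49.1 to 69.8 CPM in Glut1 tg Tnnt2low and at 26.0 to 47.4 CPM in Glut1 tg Tnnt2high libraries. Notch4, an endothelial receptor, was at 0.112 to 3.45 and 0.605 to 8.43 CPM in the same groups (log2 difference -1.59, SE 0.94, edgeR adjusted p = 0.275), and at 10.2 and 0.673 CPM in WT Tnnt2high replicates 1 and 2. Dll1, a Delta ligand, was at most at 2.81 CPM (log2 difference 1.10, SE 0.90). Among receptor glycosylation genes Rfng and Poglut1 had differences of -0.13 (SE 0.23) and -0.33 (SE 0.40). Among genes of receptor turnover and inhibition Dtx3 and Fbxw7 had differences of 0.15 (SE 0.20) and 0.14 (SE 0.16).

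In the WT population comparison 0 of the 45 passed, with 0 at an unadjusted p below 0.05 (3.11% of all genes). Between genotypes 0 of 45 passed in Tnnt2low cells, with 1 at an unadjusted p below 0.05 (2.09% of all genes), and 0 of 45 in Tnnt2high cells, with 2 (5.31% of all genes). DESeq2 called 0 of the 45 in these comparisons, and edgeR called 0 for the difference between genotypes of the population difference. The WT values of the genes that rose in Glut1 tg were also above 0, with Spen at 0.63 (SE 0.31), Ep300 at 0.49 (SE 0.24), Crebbp at 0.42 (SE 0.22) and Ncor1 at 0.32 (SE 0.18). Without WT Tnnt2high replicate 2 they were 0.92 for Spen, 0.70 for Ep300, 0.86 for Crebbp and 0.61 for Ncor1. The rise was larger in WT replicate 1 than in WT replicate 2. Tnnt2low less Tnnt2high in log2 CPM was 1.22 for Spen, 0.76 for Ep300, 0.84 for Crebbp and 0.57 for Ncor1 in replicate 1. In replicate 2 it was 0.0009, 0.24, 0.10 and 0.11 in the same order.

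Transcript length moved with the Glut1 tg population comparison over all genes. The median log2 difference was -0.47 in the 3050 genes with the shortest transcripts (70 to 2250 bases) and 0.39 in the 3046 with the longest (4956 bases or more), and 0.328% and 24.9% of these genes rose. In WT the medians were -0.22 and 0.17. Spen has a transcript of 12299, Crebbp of 10820, Ep300 of 9566, Ncor1 of 9037, Furin of 5736, Neurl1b of 6195 and Hes6 of 1573 bases. With an offset for transcript length and GC 0 of the 8 pathway genes kept the call, while over all genes 2.51% were called. Spen was then at 0.38 (SE 0.17), Crebbp at 0.16 (SE 0.12) and Adam17 at 0.57 (SE 0.21, edgeR adjusted p = 0.155). A single other pathway gene was called with the offset, Dtx2, a Deltex ligase, at -1.08 (SE 0.27, edgeR adjusted p = 0.0485), named after its value was seen. Of the 10 genes, Notch3 moved to -3.11 (SE 0.67), Notch1 to -2.23 (SE 0.66) and Neurl1b to 1.49, and Jag2 turned from 0.10 to -0.27.

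**Figure D4:**
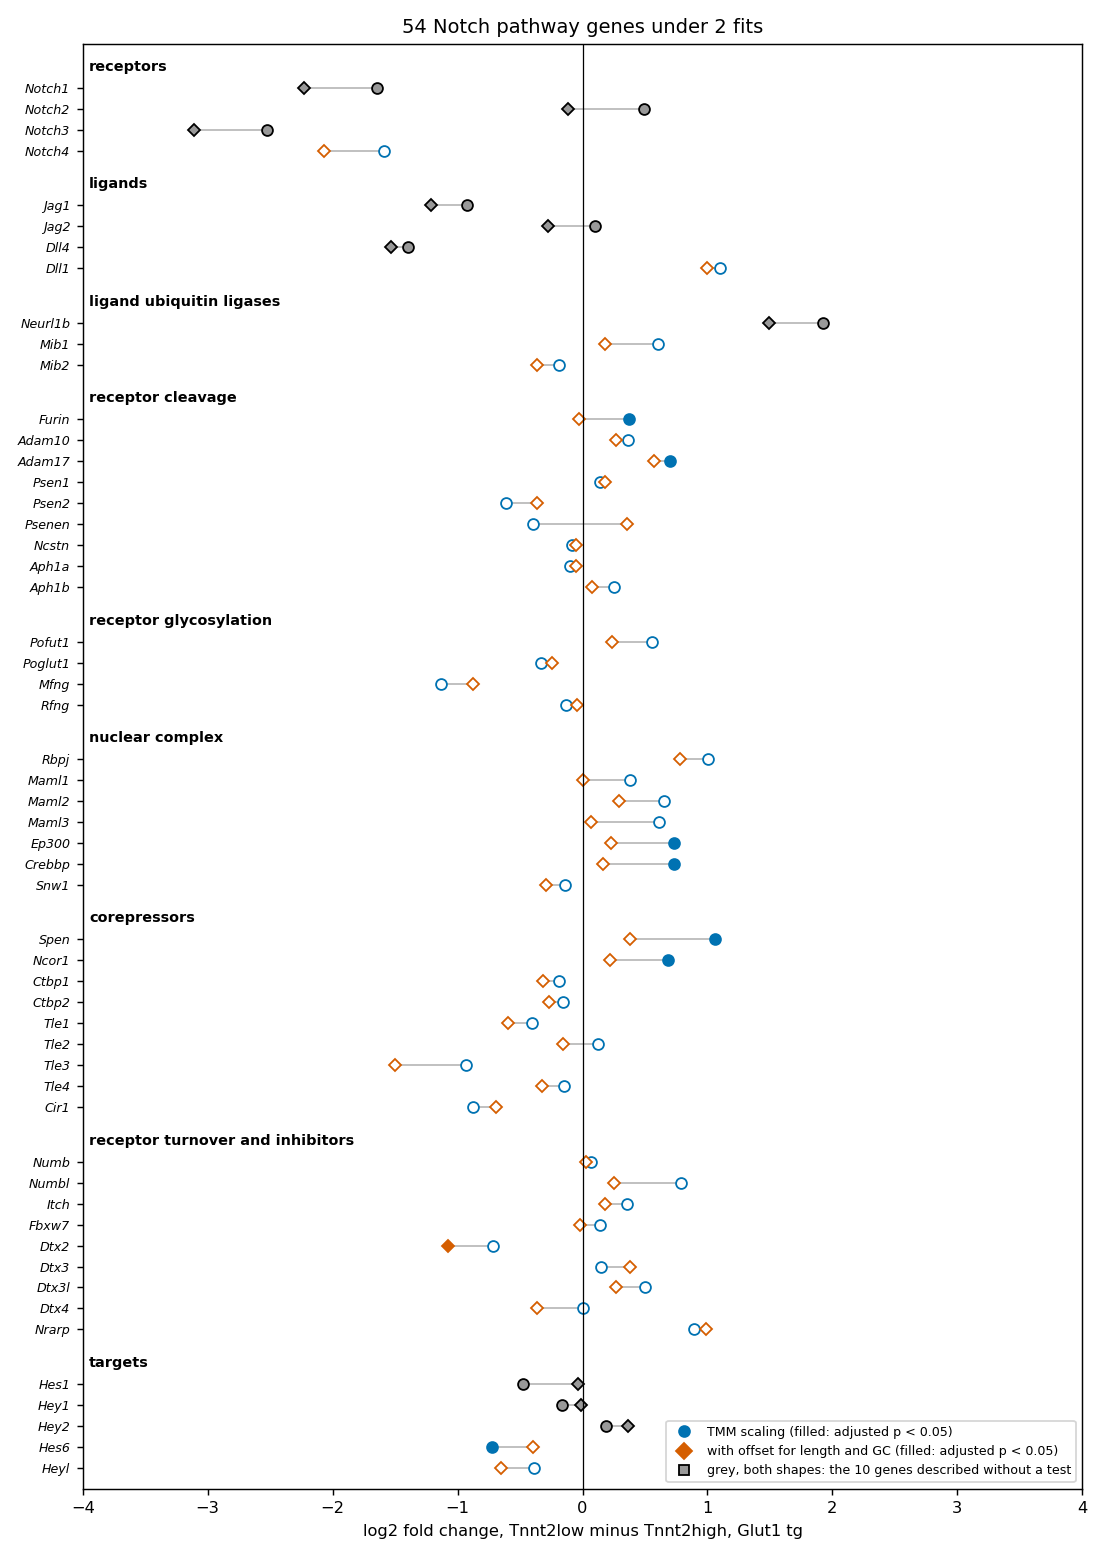
Log2 fold change of Tnnt2low over Tnnt2high in Glut1 tg hearts (x axis) for 54 of the 55 Notch pathway genes tested, by role (y axis), from the fit with TMM scaling (circles) and the fit with an offset for transcript length and GC (diamonds), grey for the 10 genes described without a test and filled in color for other genes with an adjusted p below 0.05. The 7 filled circles have open diamonds, all nearer 0, and Neurl1b also moves nearer 0 (1.92 to 1.49) while Notch3 moves away from it (-2.52 to -3.11).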

How the data were processed

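RNA from 12 sorted cardiomyocyte libraries was sequenced by the authors as single-end reads, mapped with HISAT2 to mm10 and counted with HTSeq over exons, per the study's methods and the submitters' processing notes. Sample records call the material frozen heart tissue, and the methods call it sorted cells. Tool versions, the counting mode and the use of strand were not given in the sources used here, so reads of overlapping antisense genes cannot be told apart. The authors deposited whole-number read counts for each gene, not normalized. Rows that name no gene stayed out of library sizes. Groups came from the labels.

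The counts were tested with edgeR 4.0.16 in R 4.3.3: TMM scaling, filterByExpr, 1 quasi-likelihood fit of all 12 libraries in 4 groups, and Benjamini-Hochberg adjustment over 12252 genes with a threshold of 0.05. The common biological coefficient of variation was 0.314. DESeq2 1.42.0, median-ratio size factors, no filter, fits of only the groups compared, a loess offset for length and GC content (GENCODE vM21 transcripts, a value for 99.5% of genes), replicate blocks and leaving out each library were the alternatives. Scripts were tested on simulated counts. Of 100 genes given a log2 change of 1, 64% were recovered in the Glut1 tg population comparison and 29% in WT. At a log2 change of 2 the shares were 96% and 85%. The changed genes were drawn above a floor on mean CPM that Jag1, Dll4 and Hey1 did not reach, so the shares do not cover these genes. The absence of a call in WT is thus not evidence of no change. Replicate numbers paired the populations. In Glut1 tg they stand for hearts in the labels, and same-numbered libraries deviated together (r = 0.23, 0.13, 0.12 and 0.11). In WT both replicates carry heart number 9, so the pairing there rests on the replicate number. With 2 WT libraries per group the deviations mirror each other, so the WT r of 0.27 is a single value. Other pairings were not compared. Coordinates and exon lengths are from GENCODE vM21 on mm10, and start-site windows from RefSeq.

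The 10 genes, the other pathway lists and the marker lists were chosen with earlier results of these data known. For the 10, the Glut1 tg population comparison and the interaction are given without a test. All 10 were named, with up to 4 called genes per other list and direction or, for a list without a call, its 1 or 2 most abundant genes per length, the 5 genes most like Neurl1b, and markers from the lists. A single pathway gene enters the counts but is not reported here. Intervals and limits cover counting error and the spread of these libraries only.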

Additional observations from a re-analysis of the deposited data

Results flagged for a closer look

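Adam17 in Glut1 tg Tnnt2low libraries had 1 value far from the others. Replicate 1 stood at 27.15 CPM and the other 3 at 32.7, 33.4 and 33.6 CPM, a gap to its nearest neighbour of 0.849 of the whole range. Among 36 groups of 4 libraries examined this way for the pathway genes named, it was the single such case. Chance alone gives such a gap in about 1 in 20 groups, so 1 case among 36 is not more than chance gives.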

How the results depend on the processing

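With the offset for transcript length and GC, 1 of the 10 genes (Notch3) was called in the Glut1 tg population comparison in place of 2, and 1 of the 45 other pathway genes (Dtx2) in place of 8. With the replicate block and that offset together, Neurl1b, Notch1 and Notch3 were called and again 1 of the 45 other pathway genes. The cause was not tested. Calls of the 10 genes in the Glut1 tg population comparison are a description here too, since the genes were chosen with it known. The replicate block alone gave 3 of the 10 genes, with Notch1 added, and 8 of the 45, with Mib1 in place of Furin, and changed no other count of calls. Without the filter Notch1, Mib1 and Rbpj were added and Furin was lost, and in the fit of only the groups compared Notch1 was added. DESeq2 called 2 of the 10 and 10 of the 45, with Mib1 and Dtx2 added. In the other comparisons 0 of the 10 and 0 of the 45 were called under every alternative run, leaving out a library included. Of values that were not called, the WT population difference of Dll4 turned to 0.45 with the replicate block and 0.37 with block and offset, that of Jag2 from -0.00020 to 0.0011 without the filter, and the genotype difference of Notch2 in Tnnt2low cells from -0.0058 to 0.0058 with median-ratio size factors and to 0.0057 with DESeq2.

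Leaving out each library in turn, the log2 population difference in WT ran from -2.16 to 1.23 for Notch1, from -2.91 to 0.27 for Notch3, from -0.24 to 0.21 for Jag2, from -2.26 to 7.16 for Dll4, from -0.36 to 1.90 for Neurl1b, from -0.18 to 0.42 for Hes1, from -0.31 to 1.16 for Hey1 and from -0.33 to 0.36 for Hey2. The genotype difference in Tnnt2low cells ran from -1.19 to 0.94 for Notch1, from -0.15 to 0.15 for Notch2, from -0.28 to 0.50 for Notch3, from -0.10 to 0.36 for Jag1, from -0.37 to 0.13 for Jag2, from -1.53 to 1.24 for Dll4, from -0.37 to 0.24 for Hes1, from -1.02 to 0.45 for Hey1 and from -0.053 to 0.63 for Hey2. The genotype difference in Tnnt2high cells ran from -0.39 to 2.39 for Notch1, from -0.30 to 0.43 for Notch2, from -0.29 to 2.88 for Notch3, from -0.65 to 7.98 for Dll4, from -1.85 to 0.42 for Neurl1b, from -0.023 to 0.58 for Hey1 and from -0.081 to 0.25 for Hey2. The Dll4 values of 7.16 and 7.98 are set against a single library with 0 reads and depend on the prior count. Most of these ranges were set by leaving out 1 of the 2 WT libraries of a population. Under the same leave-outs the WT population difference kept its sign for Notch2 (0.20 to 0.93) and Jag1 (-0.73 to -0.15).

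In the Glut1 tg population comparison, leaving out each library in turn called 2 to 3 of the 10 genes and 6 to 9 of the 45 others. Crebbp, Ep300, Hes6, Ncor1 and Spen were called each time. So were Neurl1b and Notch3, but for the 10 genes, chosen with this contrast known, calls are a description and no test. Furin and Adam17 both lost the call without Glut1 tg Tnnt2low replicate 1, 2 or 3 or Tnnt2high replicate 1. Furin also lost it without Tnnt2high replicate 2, and Adam17 without Tnnt2low replicate 4 or Tnnt2high replicate 3. Notch1 gained a call without Glut1 tg Tnnt2low replicate 4, as did Rbpj, Dtx2 without Glut1 tg Tnnt2high replicate 4, and Notch2 without either WT Tnnt2high library. In Glut1 tg hearts the population difference ran from 1.63 to 2.17 for Neurl1b, from -2.90 to -2.24 for Notch3 and from -2.35 to -1.30 for Notch1. It ran from -2.35 to -1.08 for Dll4, from -0.58 to -0.31 for Hes1, from -0.17 to 0.45 for Jag2, from -0.45 to 0.16 for Hey1 and from -0.011 to 0.39 for Hey2. Hey1, Dll4 and Jag1 had few reads at this depth, and the SE of the population difference was larger in WT than in Glut1 tg for each of the 10 genes.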
